A study of Mus musculus with 8 samples.

Results

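Hoxa2, Hoxa3, Hoxa4, Hoxa5, Hoxa6, Hoxa7, Hoxa9, Hoxa10 and Meis1 were followed through 4 dendritic cell progenitor populations of mouse bone marrow. These are 8 homeobox genes of the Hoxa cluster and the gene of their cofactor Meis1. Each member was read from the probe set whose annotation gave that symbol alone, with the highest mean over the 8 arrays deciding where a gene had several, and all 9 members had 1 probe set each. They are 9 of 19938 genes tested. The members were chosen by family with their log2 levels over the 4 groups known, and Hoxa9 was already known to be high in one population. The levels are therefore given as a description, and the p-values of the fit over all genes place each member in the whole table without being independent evidence for the list.

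Each population was measured on 2 Affymetrix mouse gene arrays. The populations were the CDP, the common dendritic cell progenitor, and the pre-CD8, a progenitor that the labels name without defining, each split by reporter fluorescence into an Id2-GFP- and an Id2-GFP+ fraction. Id2 encodes an inhibitor of E-protein transcription factors. An Id2-IRES-GFP reporter joins green fluorescent protein to the Id2 locus, so that GFP from it follows Id2 transcription. Whether all samples carried this reporter is not settled by the labels. All mice were heterozygous for a reporter, and the labels name no other allele and no treatment. The titles call all 8 samples Id2-GFP- or Id2-GFP+ and the source names give Id2-IRES-GFP for all 8, whereas the genotype field names Id2-IRES-GFP for both Id2-GFP- CDP samples and Zbtb46-GFP for the other 6. Groups follow the titles. If the genotype field is right, any comparison that includes Id2-GFP- CDP also compares reporter genotypes, and the differences cannot be told apart. The labels leave the sort gates unstated and do not tie replicate arrays to different mice, so that p-values speak for the scatter among these arrays alone, part of which may be technical.

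Hox proteins are homeodomain transcription factors whose genes lie in clusters in the order of their use along the body axis. In blood, genes of the Hoxa cluster are most active in stem cells and early multipotent progenitors and are shut down as cells mature. Hox proteins bind DNA with partners of the TALE class, chiefly PBX and MEIS proteins, and Hoxa9 together with Meis1 is a known driver of acute myeloid leukaemia when it stays on.

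The cluster lies on the minus strand of mouse chromosome 6, and its 8 members here spanned 78.4 kb from the first base of Hoxa2 to the last base of Hoxa10 in the RefSeq annotation of GRCm38.p6. Hoxa5 (chr6:52201754-52204587) ended 0.27 kb from Hoxa6 (chr6:52204858-52208672), Hoxa7 (chr6:52215623-52218573) began 6.95 kb further on, and Hoxa9 (chr6:52223097-52227370) followed. Mir196b (chr6:52230081-52230165), a microRNA gene, sits between Hoxa9 and Hoxa10 (chr6:52231197-52240854), 2.71 kb from the former and 1.03 kb from the latter. The annotated span of Hoxa3 (chr6:52169059-52213067) contains all of Hoxa4 (chr6:52189682-52191703), Hoxa5 and Hoxa6, so that signals of these 4 genes can share transcript and are less certain as separate measurements. Hoxa2 (chr6:52162417-52164831) lies at the start of the group, and Meis1 is on another chromosome (chr11:18880428-19019651).

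The 250 bases before a transcript start are shown for Hoxa5, Hoxa6, Hoxa9 and Meis1, the members with the largest differences between the pre-CD8 populations, to show what stands before genes that moved together. They come from the RefSeq promoter table of GRCm38.p6, are written 5′ to 3′ on the minus strand, and capitals mark CG dinucleotides, the letters at which mammalian DNA is methylated. For Meis1 the start in that table lies inside the annotated gene span, downstream of its outermost start.
Hoxa5, chr6:52204588-52204837: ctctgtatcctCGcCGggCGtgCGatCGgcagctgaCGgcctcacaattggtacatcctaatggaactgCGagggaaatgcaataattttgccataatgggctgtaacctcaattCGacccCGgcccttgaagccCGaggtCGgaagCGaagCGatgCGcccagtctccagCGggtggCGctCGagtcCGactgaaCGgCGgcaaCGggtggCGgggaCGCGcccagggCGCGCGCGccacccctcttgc
Hoxa6, chr6:52208673-52208922: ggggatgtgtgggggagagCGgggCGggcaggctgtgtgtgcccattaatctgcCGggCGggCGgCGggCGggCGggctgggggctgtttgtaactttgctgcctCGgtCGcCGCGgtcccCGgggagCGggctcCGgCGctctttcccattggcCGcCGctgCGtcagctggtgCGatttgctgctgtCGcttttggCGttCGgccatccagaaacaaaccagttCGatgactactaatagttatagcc
Hoxa9, chr6:52227371-52227620: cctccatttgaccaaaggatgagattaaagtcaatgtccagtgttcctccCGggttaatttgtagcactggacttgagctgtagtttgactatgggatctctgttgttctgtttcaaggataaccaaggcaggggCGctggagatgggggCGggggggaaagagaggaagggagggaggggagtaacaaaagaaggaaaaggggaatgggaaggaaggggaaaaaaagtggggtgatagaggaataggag
Meis1, chr11:19018970-19019219: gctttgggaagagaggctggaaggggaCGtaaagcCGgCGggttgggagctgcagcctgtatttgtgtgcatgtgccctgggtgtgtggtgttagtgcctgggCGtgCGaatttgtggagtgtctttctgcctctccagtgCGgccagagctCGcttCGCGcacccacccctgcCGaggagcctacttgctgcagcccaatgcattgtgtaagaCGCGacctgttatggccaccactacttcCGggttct
The members did not look alike in this respect. CG dinucleotides numbered 28 in these bases of Hoxa5 and 24 in those of Hoxa6, against 13 for Meis1 and 3 for Hoxa9. Over 300 bases, from 250 before the start to 50 after it, the median of 32851 promoters in the table was 7 and the upper quartile 20. Hoxa5 (29) and Hoxa6 (26) lay above that quartile, Meis1 (15) between the median and the quartile, and Hoxa9 (4) below the median. The table held 9 windows for 8 of the 9 genes, with 2 for Hoxa10 and none for Hoxa4.

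Short motifs were searched on both strands of those 300 bases, with any overlap allowed. The MEIS core TGACAG occurred in 2 of 9 windows, those of Hoxa2 and Hoxa3, and in 19.2% of all promoters. The composite HOX and PBX letters TGATTNAT were found for Hoxa2 alone among the members and in 3.22% of all promoters, and the posterior Hox letters TTTATNG were in 0 of 9 windows and 10.9% of all promoters. CCAAT, the box bound by NF-Y, was in 5 of 9 windows and 37.4% of all promoters. GGGCGG, a GC box, was in 3 of 9 (Hoxa6, Hoxa9 and a Hoxa10 window) and 35.7% of all promoters, and TATAAA was in 1 of 9, a Hoxa10 window, and 13.6% of all promoters. These are matches of letters, not measured binding.

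The arrays of each group differed in brightness. Mean linear intensity was 461 to 478 on 4 arrays and 402 to 414 on the other 4, with 1 array of every group on each side, and the brighter arrays had wider log2 distributions (interquartile range 3.65 to 3.73 against 3.15 to 3.41). Differences are therefore also given within the brighter and within the dimmer arrays, and from a fit with this array set as a block, an alternative added after seeing the data. Id2 differed between the reporter classes, with log2 intensities of 5.14, 6.30, 5.90 and 7.18 on the arrays labelled Id2-GFP- and 9.26 to 10.99 on those labelled Id2-GFP+. Zbtb46, the other gene named in the genotype field, was also lower on the former (5.48 to 6.13) than on the latter (6.96 to 8.04), so these levels do not settle which reporter was sorted. The 6 dendritic progenitor markers (Flt3, Kit, Csf1r, Irf8, Cd34 and Il3ra) summed to linear intensities of 12547 to 17078 over the 8 arrays. Single markers moved: from Id2-GFP- to Id2-GFP+ pre-CD8 Cd34 fell by 1.85, Flt3 fell by 1.11 and Csf1r fell by 1.09 on the log2 scale, while Irf8 rose by 1.14, and in Id2-GFP- cells Csf1r fell by 1.94 from CDP to pre-CD8 (all called by limma).

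All 9 members were highest on average in Id2-GFP- pre-CD8, and in 8 of 9, all but Hoxa4, both arrays of that population stood above the other 6. Of all genes tested, 8.22% had that arrangement. The members differed in how far apart the 4 groups lay: the span from the lowest to the highest group mean ran from log2 0.30 in Hoxa4 to 2.36 in Hoxa9, with a median of 0.98 over the members and 0.28 over all genes. The mean level of Hoxa2 was under the lower quartile of gene means (log2 5.04), and that of Hoxa10 was at percentile 25.2, so both were measured near the floor of the arrays, where RMA compresses differences.

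**Figure D1:**
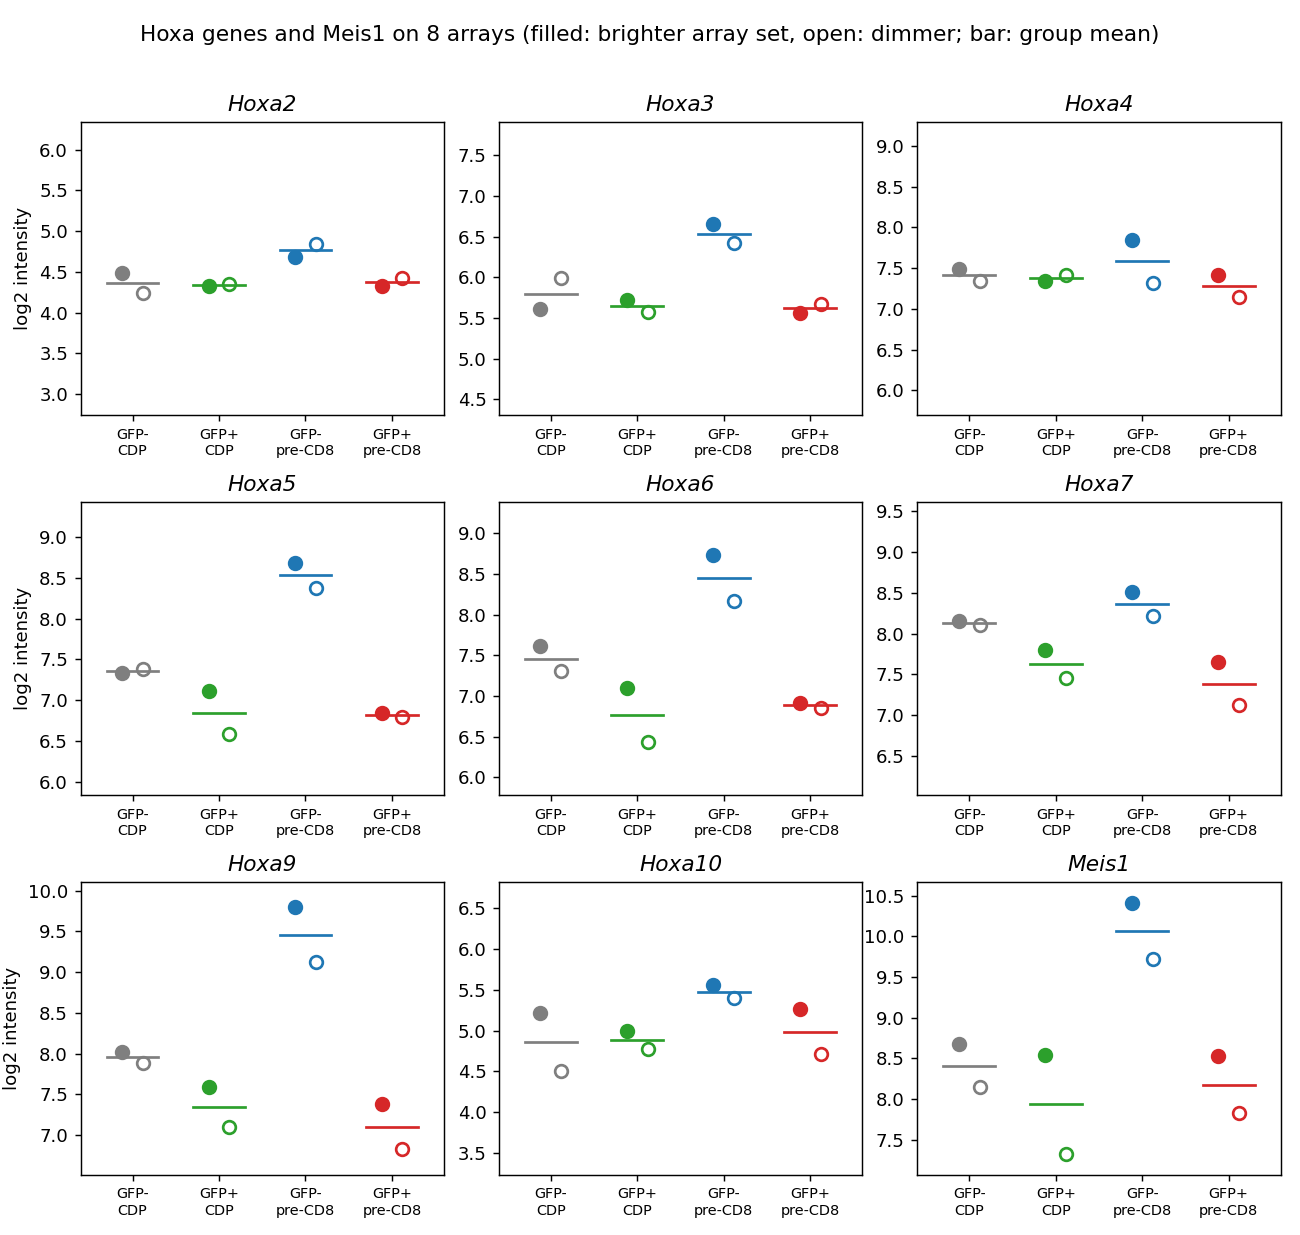
Log2 intensity of the 8 Hoxa genes and Meis1 on each of 8 arrays, by population. Filled points are the brighter arrays, open points the dimmer arrays, and bars the mean of 2 arrays; all panels cover the same number of log2 units. Both Id2-GFP- pre-CD8 arrays stand above the other 6 in 8 of 9 panels, and Hoxa4 is the exception.

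Hoxa9, which sustains self-renewal of blood stem cells and is the member most tied to leukaemia, had the widest spread. Its log2 intensity was 8.02 and 7.88 in Id2-GFP- CDP, 7.10 and 7.59 in Id2-GFP+ CDP, 9.80 and 9.12 in Id2-GFP- pre-CD8, and 6.83 and 7.38 in Id2-GFP+ pre-CD8. The lowest Id2-GFP- pre-CD8 array was 1.10 above the highest array of any other group. The group means were 7.95 ± 0.10, 7.34 ± 0.35, 9.46 ± 0.48 and 7.10 ± 0.39 (SD, n = 2) in the same order. The Id2-GFP+ CDP and Id2-GFP+ pre-CD8 arrays overlapped, so these neighbours in the order were not apart beyond their spread.

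Meis1 encodes the TALE homeodomain protein that binds DNA beside Hoxa9 and is itself required for the maintenance of blood stem cells. Its log2 intensity was 8.67 and 8.15 in Id2-GFP- CDP, 7.33 and 8.54 in Id2-GFP+ CDP, 10.41 and 9.72 in Id2-GFP- pre-CD8, and 7.83 and 8.52 in Id2-GFP+ pre-CD8. The arrays of the other 3 groups overlapped one another, and the 2 arrays of Id2-GFP+ CDP lay far apart, with an SD of 0.86, the largest of any member and group.

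Hoxa5 and Hoxa6, adjacent genes in the middle of the cluster, moved much alike. Hoxa5, known for its part in lung and airway development, had log2 intensities of 7.33 and 7.38 in Id2-GFP- CDP, 6.58 and 7.11 in Id2-GFP+ CDP, 8.69 and 8.38 in Id2-GFP- pre-CD8, and 6.79 and 6.84 in Id2-GFP+ pre-CD8. Hoxa6 had 7.61 and 7.31, 6.44 and 7.10, 8.73 and 8.17, and 6.85 and 6.92 in the same order. In both genes the Id2-GFP- CDP arrays were the second highest and did not overlap any Id2-GFP+ array.

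Hoxa7, the paralog of Hoxa6 next to Hoxa9, was nearly as high in Id2-GFP- CDP as in Id2-GFP- pre-CD8. Its values were 8.16 and 8.10 in Id2-GFP- CDP, 7.46 and 7.79 in Id2-GFP+ CDP, 8.52 and 8.21 in Id2-GFP- pre-CD8, and 7.12 and 7.65 in Id2-GFP+ pre-CD8. The lower Id2-GFP- pre-CD8 array exceeded the higher Id2-GFP- CDP array by only 0.06. All 4 Id2-GFP- arrays of Hoxa7 stood above all 4 Id2-GFP+ arrays.

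The group means of Hoxa2, Hoxa3, Hoxa4 and Hoxa10 lay closer together, each spanning less than 1 log2 unit. Hoxa3, needed for the thymus and parathyroid, had log2 intensities of 5.61 and 5.99, 5.57 and 5.72, 6.65 and 6.42, and 5.67 and 5.56 in the 4 groups in the order above, so that only Id2-GFP- pre-CD8 was apart. Hoxa4 lay between 7.14 and 7.85 on all 8 arrays, with 7.85 and 7.32 in Id2-GFP- pre-CD8, and its groups overlapped. Hoxa2, a patterning gene of the hindbrain, lay between 4.24 and 4.84, with 4.68 and 4.84 in Id2-GFP- pre-CD8. Hoxa10, at the posterior end of the members and known in early blood progenitors and the uterus, lay between 4.50 and 5.55, with 5.55 and 5.40 in Id2-GFP- pre-CD8.

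Between the pre-CD8 populations, 5 of the 9 members were lower in the reporter-positive cells by the test. In Id2-GFP+ minus Id2-GFP- pre-CD8, Hoxa9 fell by 2.36 ± 0.31 (log2 ± SE of the limma fit, adjusted p = 0.0037), a 5.14-fold difference. Meis1 fell by 1.89 ± 0.44 (3.70-fold, limma adjusted p = 0.0449), Hoxa5 by 1.72 ± 0.23 (3.29-fold, adjusted p = 0.00406), Hoxa6 by 1.57 ± 0.28 (2.96-fold, adjusted p = 0.0152) and Hoxa3 by 0.92 ± 0.19 (adjusted p = 0.0239). With 2 arrays a group, the adjusted p-values come from limma over all 19938 genes with Benjamini-Hochberg adjustment, and an adjusted p under 0.05 is a call. These 5 of 9 members were called lower and 0 higher; 2.70% of all genes were called lower and 3.57% higher. Hoxa7 differed by -0.98 ± 0.25 (limma adjusted p = 0.0574; it was called under quantile normalization, median centring, the filter on dim genes and no trend, at 0.00502 to 0.043), Hoxa10 by -0.49, Hoxa2 by -0.39 and Hoxa4 by -0.30, and none of these passed.

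The difference was also read within each array set. Hoxa9 differed by -2.42 within the brighter and -2.30 within the dimmer arrays, Meis1 by -1.89 and -1.88, Hoxa5 by -1.85 and -1.59, and Hoxa6 by -1.81 and -1.32. For the other members the values were -1.09 and -0.74 in Hoxa3, -0.87 and -1.09 in Hoxa7, -0.43 and -0.17 in Hoxa4, -0.35 and -0.42 in Hoxa2, and -0.29 and -0.69 in Hoxa10. All 9 members were lower in Id2-GFP+ pre-CD8 within both sets. Under the array set block 8 of 9 members were called lower, all but Hoxa4 (limma adjusted p = 0.208), against 13.2% of all genes, and in 8 of 9 the arrays did not overlap, against 21.5% of all genes. The members' median difference was -0.98 and that of all genes -0.01.

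The calls of Hoxa9 and Hoxa5 held when any 1 of the 8 arrays was left out, with limma adjusted p up to 0.0232 and 0.0353. That of Hoxa6 was lost without replicate 1 of Id2-GFP- pre-CD8 (adjusted p = 0.0944) and without replicate 1 (0.0776) or 2 (0.092) of Id2-GFP+ pre-CD8. That of Hoxa3 was lost without any of the 4 pre-CD8 arrays: limma's adjusted p was 0.166 and 0.0679 without replicate 1 and 2 of Id2-GFP- pre-CD8, and 0.0886 and 0.171 without those of Id2-GFP+ pre-CD8. The Meis1 call held only without either Id2-GFP+ CDP array; its limma adjusted p was 0.0630 and 0.0634 without the Id2-GFP- CDP arrays, 0.240 and 0.0708 without those of Id2-GFP- pre-CD8, and 0.230 and 0.0978 without those of Id2-GFP+ pre-CD8. The number of members called was 2 to 5 over these fits.

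**Figure D2:**
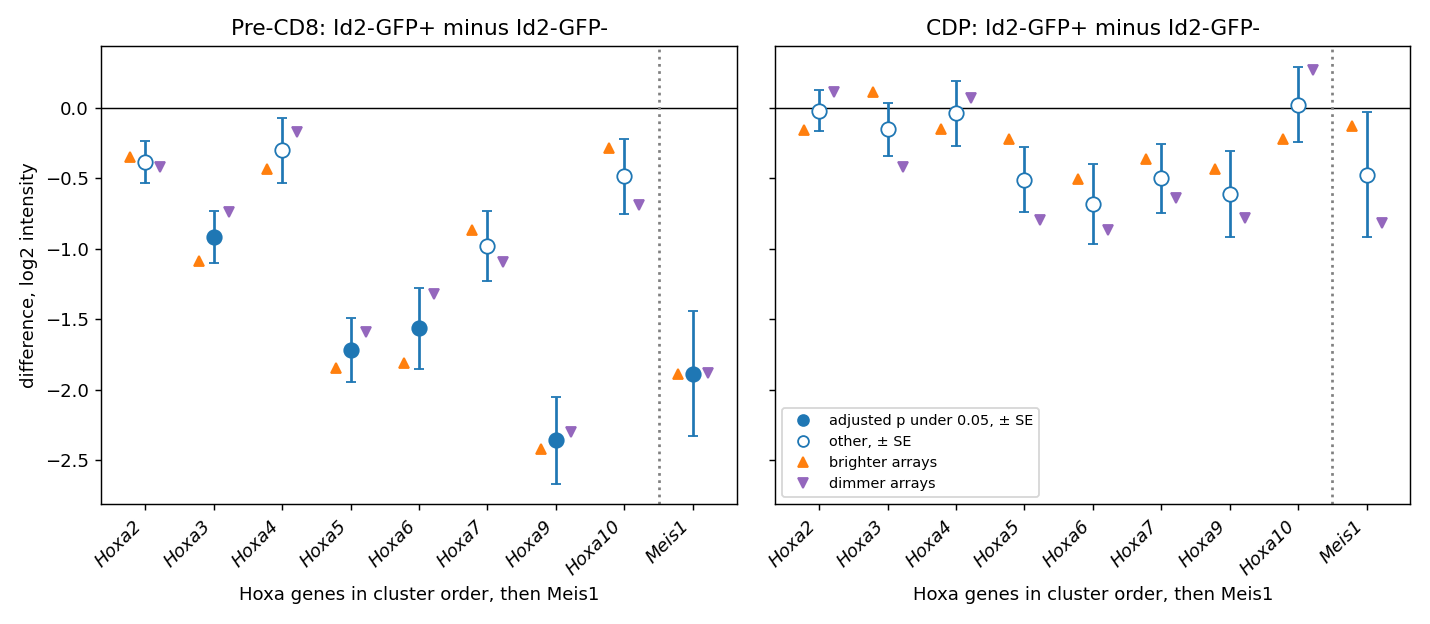
Id2-GFP+ minus Id2-GFP- difference in log2 intensity for the 9 members, in cluster order and then Meis1, in pre-CD8 (left) and CDP (right). Circles with bars are the limma estimate ± SE, filled where the adjusted p is under 0.05; triangles are the differences within the brighter and the dimmer arrays. In pre-CD8 the largest differences are those of Hoxa9, Meis1, Hoxa5 and Hoxa6 and 5 circles are filled; in CDP no circle is filled.

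In Id2-GFP- cells 1 of the 9 members, Hoxa5, was called between CDP and pre-CD8. These 2 labels are called stages here, but descent of one population from the other was not tested. By the genotype field the 2 populations also differ in reporter genotype, which cannot be told apart from stage here. Hoxa5 rose by 1.18 ± 0.23 in pre-CD8 (limma adjusted p = 0.0492), and 1.03% of all genes were called higher. Meis1 differed by 1.65 ± 0.44 (limma adjusted p = 0.153), Hoxa9 by 1.51 ± 0.31 (0.0578), Hoxa6 by 0.99 ± 0.28 (0.188) and Hoxa3 by 0.74 ± 0.19 (0.125), and did not pass. Hoxa10 differed by 0.62, Hoxa2 by 0.40, Hoxa7 by 0.24 and Hoxa4 by 0.16, and did not pass either. In 8 of 9 members the arrays did not overlap, against 15.5% of all genes. Under that block, 6 members were called higher (Hoxa3, Hoxa5, Hoxa6, Hoxa9, Hoxa10 and Meis1), against 5.82% of all genes. The Hoxa5 call was lost without either Id2-GFP- CDP array (limma adjusted p = 0.277 without replicate 1 and 0.273 without replicate 2), without either Id2-GFP- pre-CD8 array (0.255 and 0.130) and without either Id2-GFP+ pre-CD8 array (0.0933 and 0.0936).

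In Id2-GFP+ cells the 9 differences between pre-CD8 and CDP ran from -0.24 in Hoxa7 and Hoxa9 to 0.24 in Meis1, with a median of -0.03. Limma called 0 members, as it called 0 of all genes (0%); 643 genes (3.22%) had an unadjusted p under 0.05, 0 members among them. The block also gave 0 calls among the members. The direction of the Hoxa7, Hoxa9 and Meis1 differences turned when single arrays were left out, so no direction can be read from them.

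Within CDP several members had lower means in the reporter-positive cells, and none passed. Hoxa6 differed by -0.69 ± 0.28, Hoxa9 by -0.61 ± 0.31, Hoxa5 by -0.51 ± 0.23, Hoxa7 by -0.50 ± 0.25 and Meis1 by -0.48 ± 0.44, while Hoxa3 differed by -0.15 and Hoxa2, Hoxa4 and Hoxa10 by -0.04 to 0.02. Limma called 0 of 9 members, as it called 0% of all genes lower in this comparison, and the smallest adjusted p of a member was 0.856, that of Hoxa6, the 1 member with an unadjusted p under 0.05. The arrays of Hoxa5, Hoxa6, Hoxa7 and Hoxa9 did not overlap, against 12.0% of all genes. Under the array set block Hoxa6 (limma adjusted p = 0.025) and Hoxa9 (0.0292) were called lower, against 4.17% of all genes.

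The reporter difference was more negative in pre-CD8 than in CDP for all 9 members, within the brighter and within the dimmer arrays. The interaction, the pre-CD8 difference minus the CDP difference, ran from -1.75 in Hoxa9 (limma adjusted p = 0.247) to -0.26. It was called in 0 of 9 members, against 0.110% of all genes called lower. An unadjusted p under 0.05 was reached by 3 members, Hoxa3, Hoxa5 and Hoxa9. The share of all genes at that unadjusted threshold is not given here. With the array set as a block 4 were called: Hoxa9 (limma adjusted p = 6.71e-04), Meis1 (-1.41, 0.00328), Hoxa5 (-1.21, 0.00726) and Hoxa6 (-0.88, 0.0381), against 3.40% of all genes. Without the block, limma called an interaction for Hoxa9 alone among the members, and only after quantile normalization of the arrays (-1.79, adjusted p = 0.0304).

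The remaining pairs of groups share arrays with those above. When Id2-GFP- pre-CD8 was set against Id2-GFP+ CDP, the same 5 members were called, higher in the former: Meis1 by 2.13, Hoxa9 by 2.12, Hoxa5 by 1.69, Hoxa6 by 1.68 and Hoxa3 by 0.89 (limma adjusted p from 0.00543 to 0.033), against 2.08% of all genes. The block gave 8 calls, against 12.1%. The Hoxa5 and Hoxa9 calls held without any 1 array. Hoxa6 was lost without replicate 1 of Id2-GFP+ CDP (limma adjusted p = 0.0640) or of Id2-GFP- pre-CD8 (0.0799), and Meis1 without these (0.140 and 0.180) or replicate 2 of Id2-GFP- pre-CD8 (0.0599). Hoxa3 was lost without any array of those groups or of Id2-GFP+ pre-CD8, at limma adjusted p of 0.0579 to 0.214. For Id2-GFP+ pre-CD8 set against Id2-GFP- CDP, 0 members passed, against 0.401% of all genes called lower. In that comparison 3 members had an unadjusted p under 0.05, a threshold at which the share of all genes is not given here. With the array set as a block Hoxa9 (-0.85), Hoxa7 (-0.75), Hoxa6 (-0.57) and Hoxa5 (-0.54) were called lower there, against 8.85%.

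The members varied together to different degrees. Over the 8 arrays Pearson's r was 0.98 between Hoxa5 and Hoxa9 and between Hoxa5 and Hoxa6, 0.97 between Hoxa6 and Hoxa9, 0.96 between Hoxa6 and Meis1 and 0.94 between Hoxa9 and Meis1, but 0.34 between Hoxa2 and Hoxa4. The 8 points share their groups, and 1 group is high in most members. The deviations of the arrays from their group means, which also carry the brightness of the arrays, gave r of 0.95 between Hoxa7 and Hoxa9 and 0.91 between Hoxa9 and Meis1, but -0.84 between Hoxa2 and Hoxa3, -0.57 between Hoxa3 and Hoxa10 and -0.44 between Hoxa2 and Hoxa9, pairs with r of 0.75, 0.53 and 0.78 over the arrays themselves. With 2 arrays a group these deviations mirror each other, so each r rests on 4 free values.

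The other end of the Hoxa cluster was flat. Hoxa11 (chr6:52242105-52245810), 1.25 kb beyond Hoxa10, lay between log2 4.52 and 4.99 on the 8 arrays, and Hoxa13 (chr6:52258853-52260880), the last gene of the cluster, between 4.47 and 4.85. Both means were under the lower quartile of genes, neither was called in any of the 7 contrasts, and their group means spanned 0.22 and 0.17. Of the Hoxb, Hoxc and Hoxd genes, 27 of 28 listed were measured. Limma called 0 of these 27 in any of the 7 contrasts (1, Hoxb5, at an unadjusted p under 0.05, between the stages of Id2-GFP- cells), and their group means spanned 0.03 to 0.45 (highest in Hoxb5), with a median of 0.19. The means of 14 of the 27 were under the lower quartile of all genes, where a difference would be compressed. With the array set as a block, 1 was called higher and 1 lower between the pre-CD8 populations, against 13.2% of all genes called lower.

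**Figure D3:**
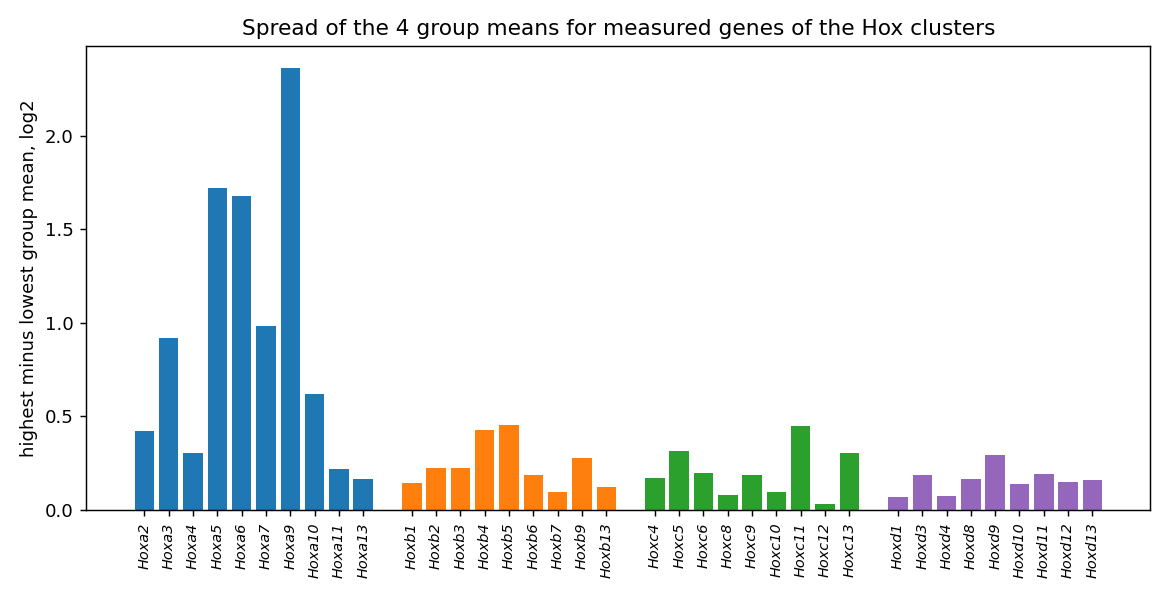
Span from the lowest to the highest of the 4 group means, in log2 units, for each measured gene of the Hoxa (blue), Hoxb (orange), Hoxc (green) and Hoxd (purple) clusters, in order within the cluster. Hoxa9 reaches 2.36 and Hoxa5 and Hoxa6 about 1.7, while the highest bar outside the Hoxa cluster, Hoxb5, is at 0.45.

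Mir196b, chosen after its values were seen, is the microRNA gene between Hoxa9 and Hoxa10. Its main mature product is shown with the seed (bases 2 to 8), which pairs with target messages, in capitals, from RefSeq, GRCm38.p6, chr6:52230129-52230150 on the minus strand; it is the arm known for targeting messages of Hox genes.
mmu-miR-196b-5p: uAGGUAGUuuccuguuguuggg
The probe set of the gene read log2 4.76 and 5.05 in Id2-GFP- CDP, 5.23 and 4.58 in Id2-GFP+ CDP, 5.98 and 5.83 in Id2-GFP- pre-CD8, and 5.09 and 4.70 in Id2-GFP+ pre-CD8. Both Id2-GFP- pre-CD8 arrays were thus above the other 6, as for its neighbours. The difference between the pre-CD8 populations was -1.01 ± 0.24 (limma adjusted p = 0.0488), and with 1 array left out the adjusted p reached 0.299. The call was also lost under median centring (limma adjusted p = 0.0889), without the trend (0.0576) and under the replicate block (0.0737). It held in 4 of 7 settings of that kind, which left out no array singly. The mean level was at percentile 27.2, little above that of Hoxa10, so it too was near the floor. Over the 8 arrays themselves r of Mir196b was 0.76 with Hoxa9, 0.44 with Hoxa10, 0.64 with Meis1 and 0.87 with Hoxa3. Deviations of its arrays from group means gave r of -0.57 with Hoxa9, -0.69 with Hoxa10 and -0.82 with Meis1, but 0.21 with Hoxa3. These deviations also carry the brightness of the arrays, and each r rests on 4 free values. An action of the microRNA on the members was not tested. The array reads the transcript of the gene and does not measure the mature microRNA.

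Among the DNA-binding partners of the TALE class, 9 of 10 listed genes were measured. Tgif1, a TALE repressor, was the 1 called between the pre-CD8 populations: it fell by 1.76 ± 0.22 in the Id2-GFP+ cells (limma adjusted p = 0.00311), from 9.43 and 9.41 to 7.87 and 7.44. The PBX genes, whose products form the trimer with Hoxa9 and Meis1, were chosen for naming after their values were seen. Pbx3 ran opposite to the members, at 7.54 and 7.01 in Id2-GFP- pre-CD8 and 7.90 to 8.38 on the other 6 arrays, a difference of 0.97 ± 0.26 (limma adjusted p = 0.0721; 3.75e-04 with the array set as a block). Pbx4 ran with them, at 8.24 ± 0.34 against 7.32 ± 0.07 (SD, n = 2), a difference of -0.93 ± 0.33 (limma adjusted p = 0.192; 0.00174 with the block). Pbx2 lay between 8.87 and 9.59 with overlapping groups. With the block 4 TALE genes were called lower and 1 higher between the pre-CD8 populations. Of all genes, 13.2% were called lower with the block, and 4822 of 19938 were called in either direction.

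**Figure D4:**
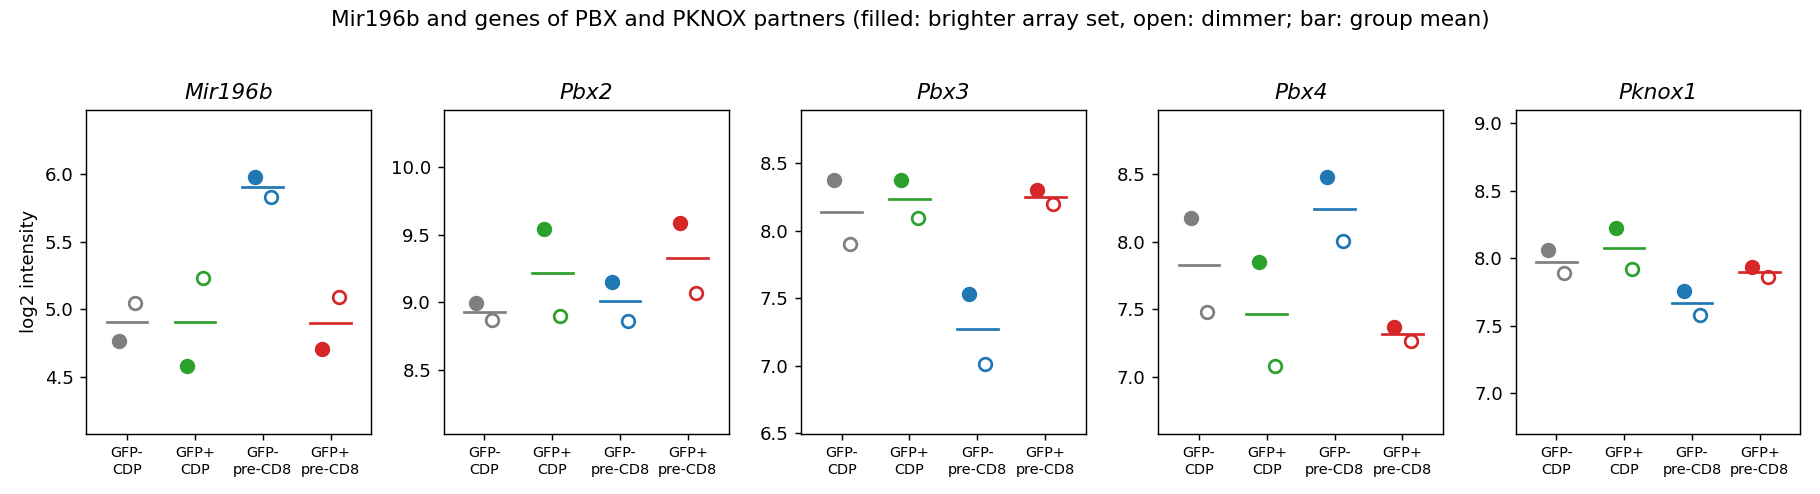
Log2 intensity of Mir196b and of 4 genes of PBX and PKNOX partner proteins on each of 8 arrays. Filled points are the brighter arrays, open points the dimmer arrays, and bars the mean of 2 arrays. Mir196b and Pbx4 are highest in Id2-GFP- pre-CD8 and Pbx3 is lowest there.

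Regulators of Hox chromatin were counted in the same way. Of 18 genes of the MLL and trithorax machinery, which keeps Hox loci active, and of the Cdx factors, limma called 0 between the pre-CD8 populations (0 at an unadjusted p under 0.05; 1 higher and 3 lower with the array set as a block), with a median difference of -0.08. Of 17 measured Polycomb genes, which keep Hox loci silent, 1 was called: Cbx2, a chromodomain reader of Polycomb complexes, fell by 0.90 ± 0.18 (limma adjusted p = 0.0238), and the median of the list was -0.09. Under the array set block 3 Polycomb genes were called lower and 2 higher. These counts stand beside 2.70% of all genes called lower and 3.57% higher without the block, and 13.2% called lower with it.

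Genes linked to Hoxa9 and Meis1 in leukaemia held several calls. Of 16 measured, 5 fell and 0 rose, with a median of -0.94, against 2.70% and 3.57% of all genes. Erg, a stem cell ETS factor, fell by 2.77 ± 0.38 (limma adjusted p = 0.00455), the surface glycoprotein gene Cd34 by 1.85 ± 0.31 (0.0106), the lymphoid and stem cell factor Sox4 by 1.76 ± 0.31 (0.0126). Myb, a factor needed by early progenitors, fell by 1.29 ± 0.27 (limma adjusted p = 0.027). Among Id2-GFP- cells, between the stages, limma called 0 of the 16, against 1.03% of all genes called higher. An unadjusted p under 0.05 was reached by 4, with no share of all genes given at that threshold. With the array set as a block 8 were called higher, against 5.82% of all genes. Of 15 measured factors of stem and multipotent progenitors, a list that holds Meis1 and Erg itself, 6 fell and 0 rose between the pre-CD8 populations, with a median of -1.16. The largest after Erg were Mycn, the proto-oncogene of early progenitors, which fell by 2.04 ± 0.27 (limma adjusted p = 0.00406), Meis1, and the RNA-binding protein gene Msi2, which fell by 1.52 ± 0.27 (0.0129). Mycn also rose by 3.24 ± 0.27 from Id2-GFP- CDP to Id2-GFP- pre-CD8 (limma adjusted p = 0.00169), more than any member.

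Genes with the pattern most like the members were sought among 1797 genes whose group means spanned at least 1 on the log2 scale, over the 8 arrays. The 5 nearest to Hoxa9 were Tcf7l2, a transcription factor of Wnt signalling (r = 0.992), Crtc1, a coactivator of CREB (0.989), Dusp2, a phosphatase of MAP kinases (0.988), Cnrip1 (0.988) and the cytochrome P450 gene Cyp2j9 (0.988). Tcf7l2 averaged 7.28, 6.86, 8.49 and 6.67 in the groups in the order above, Id2-GFP- before Id2-GFP+ and CDP before pre-CD8, which ranks them as Hoxa9 does. The 5 nearest to Meis1 were Calcrl, the receptor gene for adrenomedullin and the calcitonin gene-related peptide (0.988), Cyp2j6 (0.987), Pcmtd2 (0.987), Angpt1, a ligand of the receptor Tie2 (0.986), and Serpinb9, an inhibitor of granzyme B (0.986). The 2 sets of 5 shared no gene, but the r values lay so close together that this does not separate the 2 patterns. Between the pre-CD8 populations Pcmtd2 (limma adjusted p = 0.061), Angpt1 (0.109) and Serpinb9 (0.116) were not called. The other genes of both sets were called lower in Id2-GFP+ cells. Both sets were picked for high r over these same 8 arrays. Their order of groups and the direction of these calls follow largely from that picking and are no separate evidence.

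Markers of other cell types also differed between the pre-CD8 populations, in either direction. Of all genes, 2.70% were called lower and 3.57% higher there. Of 7 measured B lineage markers, 3 fell and 0 rose from Id2-GFP- to Id2-GFP+ pre-CD8: Dntt, the terminal transferase gene, fell by 4.24, Ebf1, an early B cell factor, fell by 2.97 and Vpreb1, of the surrogate light chain, fell by 1.14 on the log2 scale. The 7 summed to 4669 to 5442 in Id2-GFP- pre-CD8, against 648 to 1060 on the other 6 arrays. Most of that sum was Dntt, at log2 11.86 and 12.07. Pax5, the B lineage commitment factor, was at 6.12 and 6.81 there and 5.54 to 6.08 elsewhere. The B cell receptor gene Cd79a was at 5.49 and 5.11 there and 4.33 to 5.19 elsewhere. Igll1 was at 6.80 and 6.66 there and 5.76 to 6.57 elsewhere, and Cd79b at 8.44 and 8.40 there and 8.26 to 8.74 elsewhere. None of these was called. The T, NK and ILC list summed to 1409 to 1818 in Id2-GFP- pre-CD8 and 335 to 512 elsewhere, most of it Il7r, at 10.14 and 10.52 against 5.71 to 6.77, and 1 of its 7 genes fell and 2 rose in the Id2-GFP+ cells. Of 10 neutrophil markers 8 rose and 1 fell in Id2-GFP+ pre-CD8; their sum was 11805 to 13845 in Id2-GFP- and 38711 to 44958 in Id2-GFP+ pre-CD8, 10479 to 18159 in Id2-GFP- and 53960 to 78129 in Id2-GFP+ CDP.

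Of 5 measured monocyte markers, 3 rose in Id2-GFP+ pre-CD8, and the sum was 1891 to 2002 in Id2-GFP- pre-CD8 and 8089 to 12417 elsewhere. Of 7 markers of the cDC1 lineage 6 rose in Id2-GFP+ pre-CD8, with sums of 4936 to 5055 in Id2-GFP- and 9982 to 12635 in Id2-GFP+ cells. Of 7 pDC markers 2 fell. The erythroid and megakaryocyte list (5 measured) and the basophil and mast cell list (5 measured) had 0 genes called by limma between the pre-CD8 populations, and 0 at an unadjusted p under 0.05, with sums of 200 to 259 and 572 to 1555 over all arrays. The part of these markers' cells in the levels of the Hoxa genes and Meis1 was not tested, and in bulk samples fewer cells of a type and less RNA per cell cannot be told apart.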

How the data were processed

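The authors deposited 1 table of intensity values on a linear scale for 28853 probe sets and 8 arrays; per the submitters' processing notes they used RMA in Affymetrix Expression Console, with no version stated. RMA corrects background, normalises arrays and summarises probes, which compresses dim genes. Here log2 of each intensity was taken without further normalization, and no detection call was used. The array annotation gave 1 symbol to 21789 probe sets, several to 1621 and none to 5443; only the first were used, with the highest mean over 8 arrays where a gene had several (999 genes), leaving 19938 genes.

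Groups were compared with limma 3.58.1 (R 4.3.3; trend prior, all 8 arrays in 1 fit, 4 residual and 8.19 total degrees of freedom, two-sided, Benjamini-Hochberg over all genes, threshold 0.05), after a test on simulated data. Contrasts were the 6 pairs of groups and the interaction of reporter and stage. The number of arrays limits the precision. Counts at an unadjusted p under 0.05 have the share of all genes beside them only for the stage difference in Id2-GFP+ cells. Same-numbered arrays deviated together across stages within a reporter class (r of 0.713 and 0.690) and oppositely across classes (-0.685 to -0.626). Within a class the numbers and the brightness sets were the same pairing, but the numbers did not pair the samples across classes. Arrays of the same brightness set deviated together throughout (0.626 to 0.713), and that set was used as a block. Alternatives were other normalizations, a filter on dim genes, the mean of probe sets, no trend, only the groups compared, blocks and leaving out each array.

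Named were the 9 members, up to 4 called genes per list with the largest differences, and 5 genes most correlated with Hoxa9 and with Meis1. Other genes, among them Mir196b, the PBX genes and the uncalled B lineage markers, were named outside this rule. The members and lists were chosen with earlier results of these data known. Sequences and positions are from RefSeq, GRCm38.p6; the array's own build is not given in the sources used here. Figures were drawn with Python 3.11.15 and matplotlib 3.10.9.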

Additional observations from a re-analysis of the deposited data

How the results depend on the processing

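Of 45 single-gene differences recomputed under 16 settings, the calls of Hoxa5 and Hoxa9 held throughout, both between the pre-CD8 populations and for Id2-GFP- pre-CD8 against Id2-GFP+ CDP. Of 63 differences of members, 21 changed sign under some setting; 0 of these were called, and none exceeded 0.48 in size. Genes called numbered 119 for the CDP reporter difference, 1249 for that of pre-CD8, 324 and 0 for the stage difference in Id2-GFP- and Id2-GFP+ cells, 975 for Id2-GFP- pre-CD8 against Id2-GFP+ CDP, 357 for Id2-GFP+ pre-CD8 against Id2-GFP- CDP and 29 for the interaction. In that order, quantile normalization gave 207, 2567, 858, 24, 2101, 917 and 202, and the array set block 1566, 4822, 2486, 414, 4376, 3154 and 1492. Median centring gave 522 and 9 for the stage differences and 49 for the interaction; leaving out the dimmest genes gave 8 for the stage difference in Id2-GFP+ cells and 49 for the interaction. The cause was not tested.

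Members called were 5 between the pre-CD8 populations, 1 for the stage difference in Id2-GFP- cells and 5 for Id2-GFP- pre-CD8 against Id2-GFP+ CDP. Between the pre-CD8 populations quantile normalization, median centring, the filter on dim genes and no trend each gave 6, with Hoxa7 added. In the stage difference of Id2-GFP- cells quantile normalization gave 4, median centring 2, the filter on dim genes 2, and a fit of the 2 groups alone 0. Quantile normalization also gave 1 for Id2-GFP+ pre-CD8 against Id2-GFP- CDP (Hoxa7) and 1 for the interaction (Hoxa9, -1.79). The array set block gave 8 for the pre-CD8 difference, 6 for the stage difference in Id2-GFP- cells, 8 and 4 for the other pairs of groups, 2 for CDP and 4 for the interaction.

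The replicate block used numbers that did not pair the samples across reporter classes. It left 3 members called in pre-CD8, Hoxa9, Hoxa5 and Hoxa6, with Hoxa3 at limma adjusted p = 0.0618 and Meis1 at 0.0951. Members called were 0 in the stage difference of Id2-GFP- cells and 3 in Id2-GFP- pre-CD8 against Id2-GFP+ CDP. Genes called were 157, 642, 208 and 6 for the stage difference in Id2-GFP- cells, the pairs of groups in the order above, and the interaction.

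With each array left out, genes called ranged from 35 to 126 (CDP), 466 to 1313 (pre-CD8), 77 to 326 and 0 to 1 (stage differences), 436 to 867 and 77 to 370 (other pairs) and 2 to 15 (interaction), and members called from 2 to 5 (pre-CD8), 0 to 1 (stage in Id2-GFP- cells) and 2 to 5 (Id2-GFP- pre-CD8 against Id2-GFP+ CDP). Without single arrays some uncalled differences turned: in CDP Hoxa3 ranged from -0.35 to 0.035 and Meis1 from -1.08 to 0.13, and between the stages Meis1 from -0.36 to 0.85, Hoxa9 from -0.52 to 0.033 and Hoxa7 from -0.50 to 0.019 in Id2-GFP+ cells, and Hoxa4 from -0.10 to 0.43 in Id2-GFP- cells. Levels of Hoxa2 and Hoxa10 near the floor limit what their differences can show.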
